A study of Mus musculus with 4 samples.

Results

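The genes described here are 5 subunits of the phagocyte NADPH oxidase, Cybb, Cyba, Ncf1, Ncf4 and Rac2, and Hmox1, the inducible haem oxygenase. They were taken by symbol, as 6 of the 21044 genes in the deposited expression table, with earlier results of these data known. All 6 passed the filter on low counts. RNA-seq was run on microglia of the corpus callosum, the large white matter tract between the hemispheres, of mouse pups at postnatal day 7. One group, called WT here, was 2 libraries from Lag3fl/fl mice with the genotype label wt, and the other was 2 libraries from Lag3cKO-Cx3 mice with the genotype label ko, called cKO here, conditional knockouts of Lag3, an inhibitory immune receptor. What drives the deletion is named in the labels only by the tag Cx3. The labels do not give strain, sex or how many animals a library holds. How far the spread between libraries behind each p-value is technical is therefore not known. The cKO libraries differ in sex by the transcripts given below, so these at least do not hold the same animals.

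The phagocyte oxidase moves electrons from NADPH across a membrane onto oxygen and makes superoxide. Its membrane core is a heterodimer of the catalytic protein encoded by Cybb (NOX2) and the partner encoded by Cyba (p22phox), and it works only after cytosolic proteins, among them those of Ncf1 (p47phox), Ncf4 (p40phox) and a Rac GTPase, join it. Microglia are the main cells of the brain that carry this enzyme. Hmox1 breaks haem down to biliverdin, iron and carbon monoxide, and is a classic target of the oxidant-responsive factor NRF2 and of the repressor BACH1.

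Sequence of the gene starts is shown for the membrane core, Cybb and Cyba, because these partners differed most in level. The bases come from RefSeq on GRCm38.p6, and the RefSeq table held 3 of the 6 genes, Cybb, Cyba and Ncf1. Capitals mark matches, on either strand, to the purine box GAGGAA bound by PU.1-type factors, the CCAAT box and the GC box GGGCGG, motifs that do not overlap each other here. The RefSeq start of Cybb lies within the span that the deposited table gives for the gene. The first line holds the 250 bases before the Cybb start (chrX:9469325-9469574, minus strand), the second 20 bases just after that start (chrX:9469303-9469322), and the third the 250 bases before the Cyba start (chr8:122432941-122433190, minus strand).
Cybb, before the start: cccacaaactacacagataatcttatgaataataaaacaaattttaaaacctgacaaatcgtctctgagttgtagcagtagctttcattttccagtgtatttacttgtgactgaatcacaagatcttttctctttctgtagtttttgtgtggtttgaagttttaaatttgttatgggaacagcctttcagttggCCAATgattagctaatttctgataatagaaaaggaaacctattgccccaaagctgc
Cybb, after the start: ttttcatTTCCTCatcagaa
Cyba, before the start: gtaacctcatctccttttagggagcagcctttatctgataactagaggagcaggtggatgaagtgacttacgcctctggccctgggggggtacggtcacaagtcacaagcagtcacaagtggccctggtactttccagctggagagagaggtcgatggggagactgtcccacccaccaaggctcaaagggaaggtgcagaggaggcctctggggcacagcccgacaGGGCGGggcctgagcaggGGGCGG
Over the window of 300 bases that the table gives per start, Cybb held 1 CCAAT box, 56 bases before the start, and 1 purine box, 10 bases after it, and no GC box. Cyba held 2 GC boxes, 24 and 6 bases before the start, and neither of the other motifs, and Ncf1 held 1 GC box. Of all 32851 such windows, 28.3% held the purine box, 37.4% the CCAAT box and 35.7% the GC box. These matches describe letters and say nothing of binding in these cells.

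Total counts ranged from 14645187 to 16770162 per library. Lag3 was at 386 and 682 CPM (counts scaled to library size with TMM) in WT replicates 1 and 2 and at 35.4 and 17.1 CPM in cKO replicates 1 and 2, so Lag3 was lower in both libraries labelled ko than in either labelled wt. Its log2 fold change of -4.345 passed DESeq2 (adjusted p = 1.035e-19) and not edgeR (adjusted p = 0.9997). Since edgeR did not call the deleted gene itself, a gene that fails edgeR here is not thereby shown to be unchanged. Cx3cr1, a receptor gene of microglia, was at 6430 and 6541 CPM in WT and at 3398 and 3028 CPM in cKO, a difference that passed DESeq2 (adjusted p = 2.53e-08) and not edgeR (adjusted p = 0.9997). Whether the driver tagged Cx3 sits at this gene is not in the labels. The tag stands in the label of cKO alone, so for any gene the driver and the loss of Lag3 cannot be told apart. All 9 fixed microglial markers had counts in every library, with sums of 22770 and 26250 CPM in WT and 23010 and 22260 CPM in cKO. Single markers differed under that sum. Of the 9, 3 had cKO values wholly above WT (Tmem119, P2ry12 and Aif1) and 2 wholly below (Cx3cr1 and Sall1). Over all genes tested these shares were 15.8% and 20.0%. Tmem119 was at 380 and 540 CPM in WT and at 772 and 1170 CPM in cKO, or 2.11-fold, without passing edgeR (adjusted p = 0.9997) or DESeq2 (adjusted p = 0.059). cKO replicate 2 stood apart, with correlations of log2 CPM across genes of 0.783 to 0.802 with the other libraries, which correlated at 0.872 to 0.91 among themselves. It also differed in sex-linked transcripts. The 4 Y-linked markers, Ddx3y, Uty, Eif2s3y and Kdm5d, were all at 0 there and had counts in each other library. By these transcripts the cKO libraries differ in sex, which cannot be told apart from their other differences. Ddx3y was at 94.5 and 89 CPM in WT, with 107 CPM and 0 in cKO replicates 1 and 2. Xist was at 0 in both WT libraries, with 6.95 and 290 CPM in cKO replicates 1 and 2. Over all 13086 genes tested with edgeR for cKO against WT, 0.0% had an adjusted p under 0.05, with 0.9997 as the lowest adjusted p, and 4.65% had an unadjusted p under 0.05. DESeq2, the other count test, called 0.298%. Neither test called any of the 6 genes. An exact permutation test of 2 libraries against 2 cannot give a two-sided p below 0.333, so none is quoted for single genes.

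Levels per gene length, in FPKM (fragments per gene length and library size), put Cyba first and Cybb last in each of the 4 libraries. Cyba was at 522 and 521 FPKM in WT replicates 1 and 2, above 99.7% of the genes listed in both. Ncf1 was at 138.1 and 112.9 FPKM in WT, Rac2 at 135.9 and 128.5 FPKM, and Hmox1 at 126.0 and 143.7 FPKM. The ranges of these 3 genes overlapped between the WT libraries, so their order was not resolved. Ncf4 stood below them at 58.9 and 63.9 FPKM. Cybb was at 5.99 and 4.23 FPKM, above 74.3% and 69.4% of the genes listed. In cKO replicate 1 the order was Cyba, Hmox1, Ncf1, Rac2, Ncf4 and Cybb, and in cKO replicate 2 it was Cyba, Rac2, Ncf4, Hmox1, Ncf1 and Cybb. FPKM divides by the length of the annotated gene, which the files imply to be 5808 bases for Cybb and 1039 bases for Cyba.

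**Figure D1:**
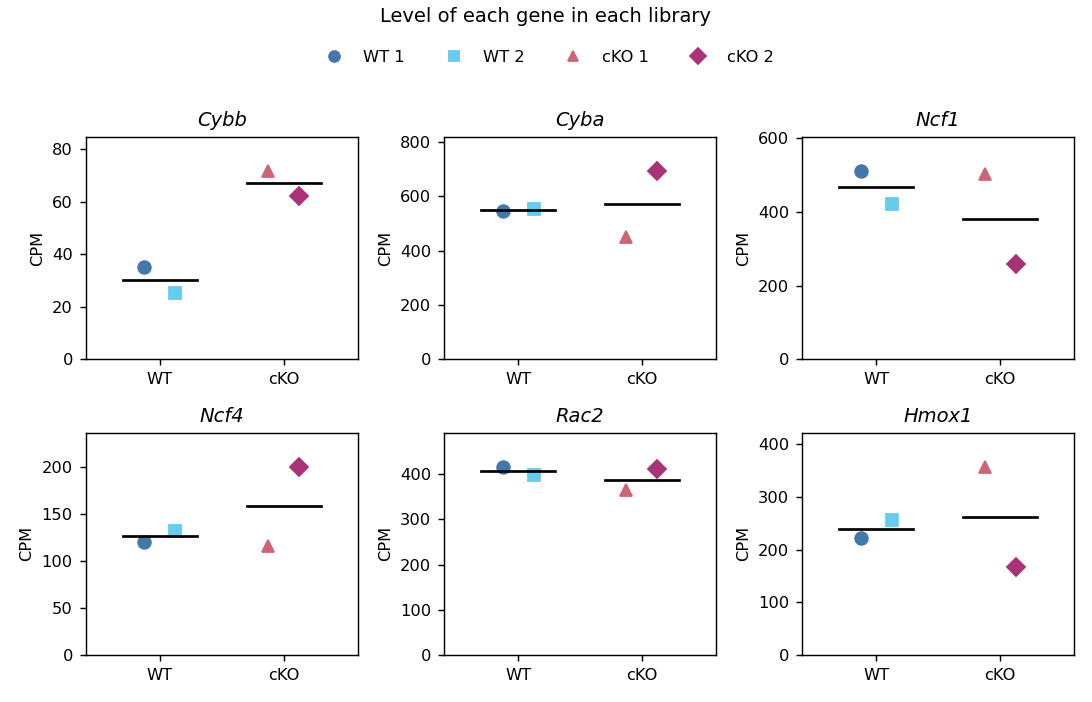
Level of the 6 genes in CPM (vertical axes, each from 0) in the 2 WT and 2 cKO libraries, with 1 symbol per library and a line at each group's mean. Both cKO libraries lie above both WT libraries for Cybb, while the groups overlap for the other 5 genes, whose cKO libraries stand on either side of WT for Cyba, Ncf4 and Hmox1.

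Cybb (ENSMUSG00000015340, chromosome X, 9435252 to 9487771 on the minus strand, GRCm38), the catalytic subunit, had 552 and 368 counts in WT replicates 1 and 2 and 1206 and 936 counts in cKO replicates 1 and 2. These are 35.1 and 25.1 CPM in WT and 71.7 and 62.3 CPM in cKO. Both cKO libraries lay above both WT libraries, and the lower cKO value was further from the higher WT value than the libraries of either group were from each other. Mean levels were 30.1 ± 7.12 CPM for WT (SD, n = 2) and 67.0 ± 6.64 CPM for cKO (SD, n = 2). The fitted log2 fold change was 1.15 with a standard error of 0.32 and a 95% interval of 0.32 to 1.99, or 2.23-fold. With edgeR the unadjusted p was 0.0167 and the adjusted p over all genes 0.9997, and with DESeq2 the adjusted p was 0.311, so the difference did not pass either test. Cybb was the only one of the 6 genes whose groups did not overlap, where 15.8% of all genes tested had every cKO value above every WT value and 20.0% had every cKO value below. In bulk RNA a change in the number of cells and a change in RNA per cell cannot be told apart.

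The higher level of Cybb was seen in each of the cKO libraries. Without cKO replicate 2 the log2 fold change was 1.25, and without cKO replicate 1 it was 1.04. Cybb is X-linked. Its level was 71.7 CPM in cKO replicate 1, the library with Ddx3y at 107 CPM and Xist at 6.95 CPM. It was 62.3 CPM in cKO replicate 2, the library with Ddx3y at 0 and Xist at 290 CPM. The part of sex in the level of Cybb was not tested. Neutrophils and monocytes carry the same oxidase. Of their 12 fixed markers 11 had counts, and these summed to 24.9 and 18.9 CPM in WT replicates 1 and 2 and to 25.2 and 147 CPM in cKO replicates 1 and 2. Ly6g, which defines neutrophils, had a count in cKO replicate 2 alone, at 6.46 CPM, and was at 0 in the other 3 libraries. Of the 8 tested, 3 had cKO values wholly above WT, as Cybb did, and 1 wholly below, against 15.8% and 20.0% of all genes tested. Cxcr2, a neutrophil chemokine receptor, was at 2.36 and 2.86 CPM in WT and 10.4 and 16.8 CPM in cKO, and Ccr2, a monocyte chemokine receptor, at 3.76 and 5.25 CPM in WT and 7.49 and 13.1 CPM in cKO. Ngp, a neutrophil granule gene, was at 0 and 0.341 CPM in WT and 2.2 and 41.7 CPM in cKO (DESeq2 adjusted p = 0.0277), while Mmp8, another granule gene, was at 6.37 and 5.18 CPM in WT and at 0 in both cKO libraries (DESeq2 adjusted p = 0.0353). The part of these cells in the level of Cybb was not tested. Markers of border-associated macrophages summed to 504.5 and 551 CPM in WT and to 525 and 544.5 CPM in cKO, ranges that overlap. Mrc1 made up most of each sum, at 405.5 and 471 CPM in WT and 409 and 462 CPM in cKO. Of the 7 markers, 1 had cKO values wholly above WT and 0 wholly below. That marker was Lyve1, at 8.66 and 3.27 CPM in WT and 14.9 and 14.8 CPM in cKO. Cd163 was at 9.48 and 7.97 CPM in WT, with 12.4 CPM and 0 in cKO replicates 1 and 2.

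Cyba (ENSMUSG00000006519, chromosome 8, 122424776 to 122432930 on the minus strand), which encodes the protein that pairs with and stabilises the catalytic subunit, had 8603 and 8113 counts in WT and 7579 and 10418 in cKO. These are 548 and 553 CPM in WT and 450.5 and 693 CPM in cKO. The WT libraries lay within the interval between the cKO libraries, with cKO replicate 1 below both and cKO replicate 2 above both. The log2 fold change was 0.056 with a standard error of 0.25 and a 95% interval of -0.59 to 0.70 (edgeR adjusted p = 0.9997). The direction turned with the library left out, from -0.29 without cKO replicate 2 to 0.33 without cKO replicate 1. The cKO libraries differed from each other by 0.62 on the log2 scale and the WT libraries by 0.013. Among the 477 genes tested within 2-fold of its level, 80.5% had a smaller gap between the cKO libraries than Cyba.

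The balance between these partners can be read within each library, free of the scaling between libraries. The ratio of Cyba to Cybb in FPKM was 87.1 and 123 in WT replicates 1 and 2 and 35.1 and 62.2 in cKO replicates 1 and 2. Both cKO ratios lay below both WT ratios. The ratio carries the difference in Cybb and is no independent measure of it. Cybc1, listed in the files as BC017643, encodes a chaperone that the heterodimer needs to be made, and was at 80.7 and 99 CPM in WT and at 97.9 and 36.1 CPM in cKO. Its groups overlapped, and only cKO replicate 2 stood below both WT libraries.

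**Figure D2:**
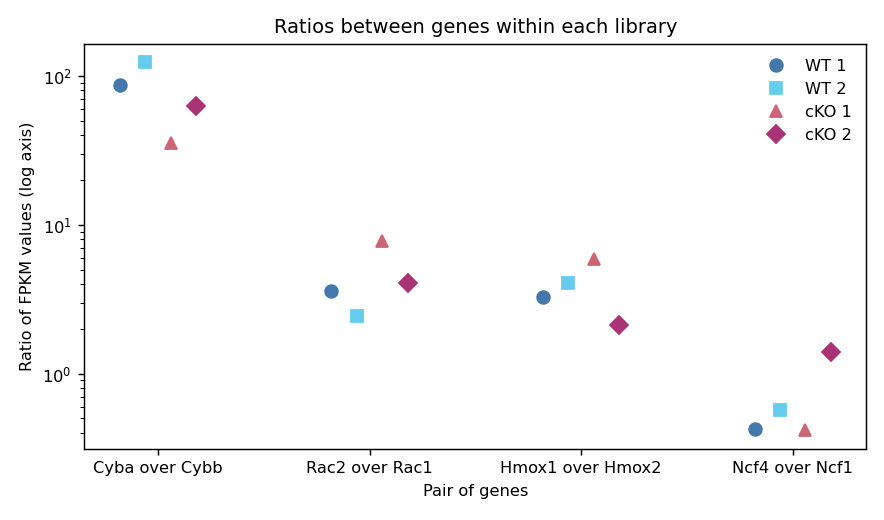
Ratio of the FPKM values of 2 genes within each library (vertical axis, log scale) for 4 pairs of genes, with 1 symbol per library. Cyba over Cybb is at 87.1 and 123 in WT and 35.1 and 62.2 in cKO, and Ncf4 over Ncf1 is at 1.4 in cKO replicate 2 and between 0.416 and 0.566 in the other libraries.

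Among the cytosolic subunits, cKO replicate 2 held the lowest value of Ncf1 and the highest of Ncf4, while cKO replicate 1 lay near WT for both. Ncf1 (ENSMUSG00000015950, chromosome 5, 134220053 to 134229625 on the minus strand), the organizer that carries the cytosolic complex to the membrane, had 8023 and 6195 counts in WT and 8463 and 3902 in cKO. In CPM these were 511 and 422 in WT and 503 and 260 in cKO, so that cKO replicate 1 lay between the WT libraries and cKO replicate 2 below them. The log2 fold change was -0.29 with a standard error of 0.35 and a 95% interval of -1.22 to 0.63 (edgeR adjusted p = 0.9997). Leaving out cKO replicate 1 gave -0.85, and leaving out cKO replicate 2 gave 0.11. Exons of Gtf2ird2 overlap those of Ncf1 on the other strand, and the sources used here do not give the strand of the counting. Gtf2ird2 was low, at 19.5 and 17.4 CPM in WT and 19.4 and 10.4 CPM in cKO, and the share of such reads in the counts of Ncf1 was not tested.

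Ncf4 (ENSMUSG00000071715, chromosome 15, 78244801 to 78262580 on the plus strand), a subunit that binds the phosphoinositide of phagosome membranes, had 1887 and 1934 counts in WT and 1944 and 3004 in cKO. Its level was 120 and 132 CPM in WT and 115.5 and 200 CPM in cKO. cKO replicate 2 was higher than every other library, and cKO replicate 1 was slightly below both WT libraries. The log2 fold change was 0.32 with a standard error of 0.32 and a 95% interval of -0.50 to 1.15 (edgeR adjusted p = 0.9997), and leaving out cKO replicate 1 or 2 gave 0.66 or -0.13. The ratio of Ncf4 to Ncf1 in FPKM was 0.426 and 0.566 in WT and 0.416 in cKO replicate 1, against 1.4 in cKO replicate 2. This library is also the one with the raised sum of neutrophil and monocyte markers, at 147 CPM, and the one without counts of the Y-linked markers. It also had the fewest genes with at least 1 count, 12787. The part of those cells, of sex or of this lower number in the values of Ncf1 and Ncf4 was not tested.

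Rac2 (ENSMUSG00000033220, chromosome 15, 78559169 to 78572783 on the minus strand as the files give it, a span that differs from GENCODE M21), the GTPase of blood-derived cells that switches the oxidase on, was the steadiest of the 6 genes between the cKO libraries. It had 6543 and 5842 counts in WT and 6146 and 6167 in cKO, or 416.5 and 398 CPM in WT and 365 and 410 CPM in cKO. The groups overlapped, and the log2 fold change was -0.070 with a standard error of 0.16 and a 95% interval of -0.48 to 0.34 (edgeR adjusted p = 0.9997). Rac1, the broadly expressed GTPase that can also serve the oxidase, was at 171 and 243 CPM in WT and at 69.9 and 150.5 CPM in cKO. Both cKO libraries lay below both WT libraries for Rac1, at a log2 fold change of -0.91 (standard error 0.43), and it did not pass edgeR (adjusted p = 0.9997) or DESeq2 (adjusted p = 0.83). The ratio of Rac2 to Rac1 in FPKM was 3.61 and 2.42 in WT and 7.74 and 4.04 in cKO.

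Hmox1 (ENSMUSG00000005413, chromosome 8, 75093621 to 75100589 on the plus strand) had 3498 and 3768 counts in WT and 6020 and 2513 in cKO. Its level was 223 and 257 CPM in WT, with 358 and 167 CPM in cKO replicates 1 and 2. The cKO libraries thus held its highest and its lowest value, 1.10 apart on the log2 scale, where the WT libraries were 0.20 apart. Of the 1147 genes tested within 2-fold of its level, 94.6% had a smaller gap between the cKO libraries. The log2 fold change was 0.13 with a standard error of 0.39 and a 95% interval of -0.90 to 1.16 (edgeR adjusted p = 0.9997). With cKO replicate 2 left out it was 0.57, and with cKO replicate 1 left out -0.53. Markers of erythroid cells summed to 3.56 and 4.84 CPM in WT and to 11.2 and 12.5 CPM in cKO replicates 1 and 2. Markers of astrocytes summed to 225 and 182 CPM in WT and to 239 and 524 CPM in cKO. All 9 were fitted higher and 6 had cKO values wholly above WT, against 48.2% and 15.8% of all genes tested. The part of these markers, of sex, or of the lower number of genes with counts in cKO replicate 2, in the value of Hmox1 was not tested.

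**Figure D3:**
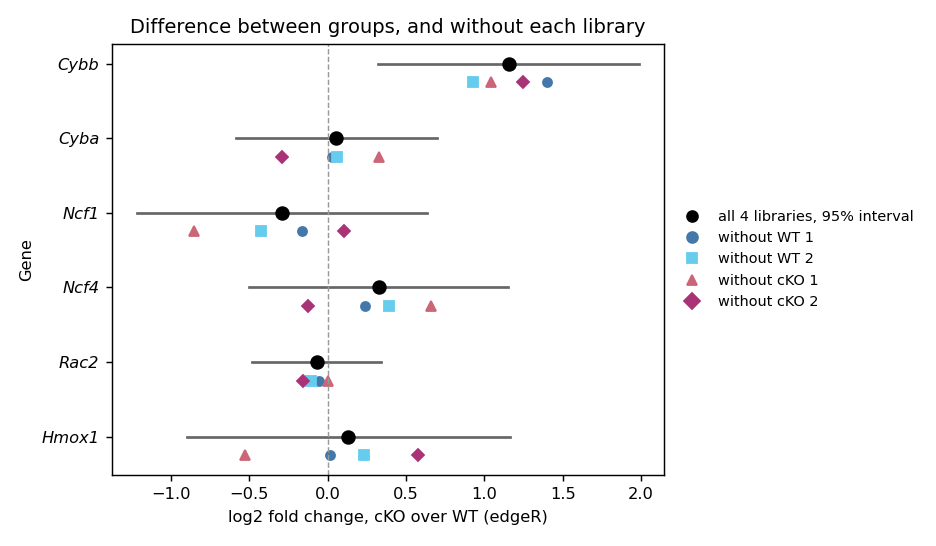
Fitted log2 fold change of cKO over WT (horizontal axis) for each of the 6 genes, with the 95% interval from all 4 libraries (black point and grey bar) and the value after leaving out each library (coloured symbols). The values of Cybb stay between 0.93 and 1.40, whereas the other 5 genes have values on both sides of 0.

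None of the regulators of Hmox1 passed a test. Nfe2l2, which encodes NRF2, was at 218 and 276 CPM in WT and 226 and 292 CPM in cKO. Keap1, which holds NRF2 in check, was at 47 and 34.3 CPM in WT and 39.4 and 42.5 CPM in cKO. Both genes had overlapping groups. Bach1, the repressor, was at 31.8 and 39.5 CPM in WT and 27.7 and 14 CPM in cKO, so each cKO value lay below each WT value, at a log2 fold change of -0.77 (standard error 0.47) that did not pass edgeR (adjusted p = 0.9997). Hmox1 was at its highest, 358 CPM, in cKO replicate 1 and at its lowest, 167 CPM, in cKO replicate 2, where Bach1 was lowest too. The part of Bach1 in the level of Hmox1 was not tested. Hmox2, the constitutive haem oxygenase, was at 86.3 and 79.6 CPM in WT and 76.9 and 99.5 CPM in cKO. The ratio of Hmox1 to Hmox2 in FPKM was 3.27 and 4.08 in WT and 5.89 and 2.13 in cKO.

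The other genes of the pathway were taken from 3 lists chosen by function. None of their genes passed edgeR or DESeq2. Of 14 other oxidase subunits and assembly genes, all tested, 7 were fitted higher and 7 lower, with a median log2 fold change of -0.0068, against a median of -0.027 and 48.2% fitted higher over all genes tested. In this list the cKO values lay wholly above WT for 1 gene and wholly below for 2, against 15.8% and 20.0% of all genes tested. Genes of high mean level in it were Arhgdia, an inhibitor that can hold Rac in the cytosol, Vav1, a Rac activator, and Pik3cg, a kinase that makes phosphoinositides. Arhgdia was at 1462 and 1598 CPM in WT, 1514 in cKO replicate 1 and 896 in cKO replicate 2, and Vav1 and Pik3cg had log2 fold changes of 0.078 and 0.0080.

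Of 22 NRF2 and haem breakdown genes, 19 were tested, 6 fitted higher and 13 lower, with a median log2 fold change of -0.16. Both cKO libraries lay below both WT libraries for 8 of the 19, against 20.0% of all genes tested, and above for 2, against 15.8%. The 8 include Bach1 and Ftl1, the ferritin light chain that stores iron released from haem, at 3689 and 3682 CPM in WT and 3050 and 3562 CPM in cKO. Fth1, the ferritin heavy chain, Taldo1 and Tkt, enzymes of the pentose phosphate pathway that remakes NADPH, had overlapping groups and log2 fold changes of -0.033, 0.12 and -0.28. Of 28 peroxide, superoxide and thiol defence enzymes, 26 were tested, 9 fitted higher and 17 lower, with a median of -0.063, 0 above both WT libraries and 3 below, against the same shares. Gpx3, a glutathione peroxidase, was at 992 and 830 CPM in WT and 882 and 581 CPM in cKO, and Prdx1, a peroxiredoxin, was nearly level at 713 and 686 CPM in WT and 691 and 684 CPM in cKO. Prdx5 and Sesn1 had log2 fold changes of 0.018 and -0.060. The part of the neutrophil, monocyte and astrocyte markers given above in these lists was not tested.

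**Figure D4:**
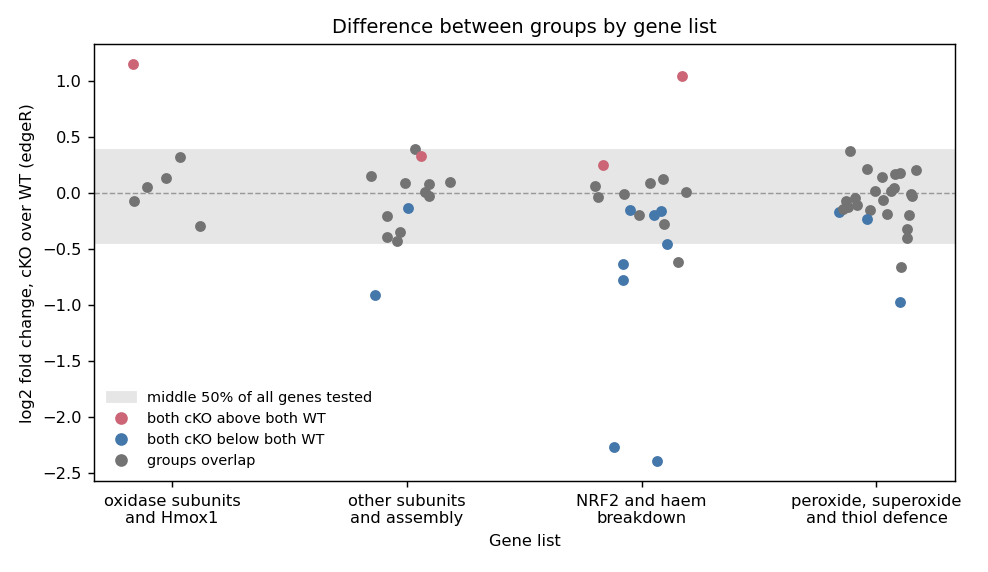
Log2 fold change of cKO over WT from edgeR (vertical axis) for each tested gene of 4 groups of genes (horizontal axis), with 1 point per gene coloured by whether both cKO libraries lie above, below or among the WT libraries. The grey band, from -0.45 to 0.39, holds the middle 50% of all genes tested, and Cybb at 1.15 is the highest of the points.

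Other oxidases were scarcely present. Nox4 was at 0.886 CPM in WT replicate 2 and at 0 in the other libraries, and Noxo1 was at 1.07 CPM in cKO replicate 1 and at 0 in the others. Rac3, a neuronal Rac, was at 6.68 and 7.43 CPM in WT and 4.93 and 7.19 CPM in cKO. Mpo, the peroxidase of neutrophil granules, had 8.21 CPM in WT replicate 1 and 0 elsewhere, cKO replicate 2 included. For the other genes of these lists no value is given here.

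In the authors' deposited tables, each of which sets 1 cKO library against 1 WT library, Cybb was called higher in 3 of 4 tables and was the only one of the 6 genes called in any. The fold changes there were 2.07 for cKO replicate 1 against WT replicate 1, 2.93 for cKO replicate 1 against WT replicate 2, 1.84 for cKO replicate 2 against WT replicate 1 and 2.60 for cKO replicate 2 against WT replicate 2. The third of these was under the 2-fold that the authors' calls require. In this order the authors' deposited tables called 20.3%, 17.2%, 18.1% and 17.1% of genes higher and 15.8%, 17.6%, 28.7% and 31.7% lower. The tables share libraries, so their values stand side by side and are no replicates of each other. Hmox1 was at 1.63 and 1.43-fold against WT replicates 1 and 2 in cKO replicate 1 and at 0.778 and 0.682-fold in cKO replicate 2, in the authors' deposited tables. Ncf1 was there at 0.997 and 1.22-fold in cKO replicate 1 and at 0.527 and 0.644-fold in cKO replicate 2. Rac1 was called lower in both of the authors' deposited tables of cKO replicate 1, at 0.415 and 0.294-fold, and in neither of cKO replicate 2. The reverse held for Cybc1, called lower in both tables of cKO replicate 2, at 0.464 and 0.382-fold, and in neither of cKO replicate 1.

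The genes most like each of the 6 in pattern were sought by the distance between log2 CPM values centred per gene over the 4 libraries. The search covered 3442 genes whose mean level reached 50 CPM, with predicted and clone-named genes left out. For Cybb the nearest were Axl, a receptor for dying cells, at a distance of 0.235, then Ncapd3 at 0.264 and Map3k8 at 0.278. Axl was at 79.1 and 56.1 CPM in WT and 132.5 and 139 CPM in cKO, with cKO replicate 2 the higher, unlike Cybb. For Ncf1 the nearest were Rictor, Thoc1 and Atad1, all lowest in cKO replicate 2, and for Ncf4 they were Ubb, Lcorl and Zfp330, all highest there. Cyba lay nearest to Dnajb11, Tmed10 and Taok1, Rac2 to Son, Rpp14 and Ctsz, and Hmox1 to Mynn, Zfp106 and Slc29a3. The nearest gene lay at 0.0275 for Cyba, 0.0513 for Ncf1, 0.02 for Ncf4, 0.0226 for Rac2 and 0.129 for Hmox1. Each was closer than the nearest to Cybb. With 4 libraries such a likeness is a description only.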

How the data were processed

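RNA-seq libraries of 2 WT and 2 cKO samples were compared, with groups taken from the labels. Tools named in the submitters' processing notes are HTSeq 0.6.0, TopHat2 2.0.12 and Bowtie2 2.2.3, with mm9 as the build. Gene positions in the deposited table instead matched GENCODE M21 on GRCm38 for 92.1% of 21008 shared genes, and are given as GRCm38. The authors deposited FPKM values, and 4 tables that hold, per the file headers, gene read counts, a normalized signal (CPM, with 0.5 in place of a count of 0), the ratio of the pair of libraries and its log2, and p-values from a test that the sources used here do not name. In the authors' deposited tables the adjusted p lies below the p for 78.9% to 86.3% of genes, so the text uses their folds and calls, and their adjusted p in 1 alternative only.

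Counts were joined for 18459 genes. Of 73836 values 4315 were missing and were recovered from FPKM, all whole within 0.001 and none for the 6 genes. The replicates differed beyond sampling noise (chi-square per degree of freedom 27.8 for WT and 107.5 for cKO). The main test was edgeR 4.0.16 in R 4.3.3 (quasi-likelihood, TMM, filterByExpr, Benjamini-Hochberg adjustment at 0.05). It was also run on counts simulated from its own fitted dispersions. These hold no outlying library, so that run is no check of the test on these data. Alternatives were DESeq2 1.42.0, limma 3.58.1 on log2(FPKM + 1) with other pseudocounts, other scalings and filters, a replicate block and leaving out each library. Gaps between single libraries are on log2(CPM + 0.5). Named genes are the 6, Lag3, Cx3cr1, Rac1, Cybc1, Nfe2l2, Keap1, Bach1, Hmox2, the 4 genes of highest mean level in each list, except items not reported here, and the 3 nearest in pattern. The genes and lists were chosen with earlier results of these data known.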

Additional observations from a re-analysis of the deposited data

How the results depend on the processing

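The number of genes past the edgeR threshold was 0 in the fit with all libraries, where 608 genes had an unadjusted p under 0.05. It stayed at 0 under the other scalings, filters, pseudocounts and the replicate block, was 39 with DESeq2, and with 1 library left out it lay between 0 and 910. The 910 arose without cKO replicate 1, a fit that takes the spread of the remaining cKO library from WT. None of the 6 genes passed under any of 15 alternatives. Leaving out each library gave log2 fold changes of 0.93 to 1.40 for Cybb, -0.29 to 0.33 for Cyba, -0.85 to 0.11 for Ncf1, -0.13 to 0.66 for Ncf4, -0.16 to 0.0036 for Rac2 and -0.53 to 0.57 for Hmox1. The direction of Cyba, Ncf1 and Ncf4 turned without cKO replicate 2, and that of Rac2 and Hmox1 without cKO replicate 1. Under the other 11 alternatives no direction turned, and Cybb lay between 1.07 and 1.20. The labels tie no origin to a replicate number, and deviations of same-numbered libraries correlated at -0.0229 across genes. With the replicate block the log2 fold change of Cybb was 1.17 and 0 genes passed. The authors' deposited tables called 0 of the 6 genes in all 4 tables, and the number under an adjusted p of 0.001 in the same direction in all 4 was 1, Cybb. That mark separates little, since single tables put 4 to 6 of the 6 genes under it. The same count over all genes was not made, so it does not set Cybb apart. With 2 libraries a group, differences within the 95% intervals of the 5 other genes are not excluded. The intervals are no limit of detection, since Lag3, at a log2 fold change of -4.345, did not pass edgeR either. Counts of the 6 genes were at least 368 per library.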

Other observations

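Among the NRF2 genes, 3 that fall outside the rule for naming genes were chosen after their values were seen. Txnrd1, the cytosolic thioredoxin reductase, was at 19.2 and 25.8 CPM in WT and 34.8 and 58.4 CPM in cKO, at a log2 fold change of 1.05 (standard error 0.42). Gclm, the modifier subunit of the enzyme that starts glutathione synthesis, was at 4.07 and 3.41 CPM in WT and 1.01 and 0.399 CPM in cKO, and its partner Gclc was at 11.3 and 8.24 CPM in WT and 11.4 and 11.8 CPM in cKO, so that its lower cKO value was just above the higher WT value. None of the 3 passed edgeR (adjusted p = 0.9997) or DESeq2 (adjusted p = 0.839 for Txnrd1). All 3 are known NRF2 targets, and Txnrd1 and Gclc were fitted higher and Gclm lower. They do not stand for their list, in which 6 of the 19 tested genes were fitted higher and 13 lower. Txnrd1 and Gclc are the only 2 of the 19 with cKO values wholly above WT, against 15.8% of all genes tested. Gclm is 1 of 8 wholly below, against 20.0%.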
